A study of Mus musculus with 12 samples.

Results

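The SLC25 family is the set of mitochondrial solute carriers, and its members were taken as every protein-coding gene of the deposited count matrix whose mouse symbol begins with Slc25a and a number. The matrix held 45 such genes among 27504 rows. Of these, 39 had 10 or more counts in at least 6 of the 12 libraries and were tested, together with 14255 genes in all that met the same limit. The RNA came from whole hearts of wild type C57BL/6 mice at postnatal day 45, in 6 groups of 2 libraries. An angiotensin II (AngII) arm, modelling cardiac hypertrophy, and a sham-operated arm were each divided by gastric dosing for 7 days with vehicle (0 mg), 5 mg/kg/day or 50 mg/kg/day of gastrodin, a phenolic glucoside from the orchid Gastrodia elata. The AngII dose and the sex of the mice were not stated in the labels used. Each library is called by its arm, its dose and a number (1 to 12). Nothing in the labels ties a library to a separate animal, and p-values thus cover only the spread between samples, which may be technical.

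SLC25 carriers are nuclear-encoded proteins that, with few exceptions, sit in the inner mitochondrial membrane and exchange metabolites between the cytosol and the matrix. In heart muscle they export ATP, bring in ADP, phosphate and acylcarnitines, and run the malate-aspartate shuttle that carries reducing equivalents. Others supply the matrix with cofactors, nucleotides, glutathione and iron. After synthesis in the cytosol they are inserted by the TIM22 import route.

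Total counts were 63.5 to 78.6 M per library, and mitochondrially encoded genes took 63.1 to 74.5% of them. Genes outside the mitochondrial, mitochondrial-like and ribosomal RNA loci held 7.49 to 20.3% in the AngII arm and 6.34 to 10.4% in the sham arm, and 4.49 to 15.2 M counts in all. AngII 5 mg number 4 was the AngII library with the lowest such share, and sham 50 mg number 12 held 11.1% of its counts on ribosomal RNA loci. Cardiomyocyte markers were high in every library, with a summed level of 2897 to 7745 CPM (counts divided by the TMM-adjusted library total, on the usual scale). In bulk RNA, fewer cells of a type and less RNA per cell cannot be told apart. The family as a whole held 0.857 to 0.977% of the counts of these other genes in the AngII arm and 0.694 to 1.11% in the sham arm.

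Of the 45 members, 34 had a promoter window in the RefSeq table (build GRCm38.p6), which runs from 250 bases before to 50 bases after the start site. The 250 bases before the start are shown for 4 members on which the results below turn. Slc25a22 (chr7:141437875-141438124, minus strand, the window nearest the annotated gene start of 3 in the table) and Slc25a36 (chr9:97111042-97111291, minus strand) were higher in CPM in each AngII library than in any sham library. Slc25a24 (chr3:109122899-109123148, plus strand) had the largest fall, and Slc25a4 (chr8:46211063-46211312, minus strand) was the most abundant member. Capitals mark a match to one of the motifs described after the sequences.
Slc25a22: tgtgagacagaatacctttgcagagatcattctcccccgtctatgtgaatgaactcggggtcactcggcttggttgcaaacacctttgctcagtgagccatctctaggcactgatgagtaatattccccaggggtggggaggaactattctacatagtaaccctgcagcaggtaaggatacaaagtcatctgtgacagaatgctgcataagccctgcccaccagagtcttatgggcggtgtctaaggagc
Slc25a36: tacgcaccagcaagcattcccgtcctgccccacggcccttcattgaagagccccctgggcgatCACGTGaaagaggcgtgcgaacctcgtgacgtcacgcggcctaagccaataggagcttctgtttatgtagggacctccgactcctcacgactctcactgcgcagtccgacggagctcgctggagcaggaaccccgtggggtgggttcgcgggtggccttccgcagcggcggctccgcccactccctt
Slc25a24: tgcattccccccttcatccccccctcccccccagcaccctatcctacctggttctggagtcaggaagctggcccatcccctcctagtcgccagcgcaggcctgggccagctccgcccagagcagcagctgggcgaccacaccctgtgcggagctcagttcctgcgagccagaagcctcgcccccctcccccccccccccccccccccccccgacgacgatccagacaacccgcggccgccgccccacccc
Slc25a4: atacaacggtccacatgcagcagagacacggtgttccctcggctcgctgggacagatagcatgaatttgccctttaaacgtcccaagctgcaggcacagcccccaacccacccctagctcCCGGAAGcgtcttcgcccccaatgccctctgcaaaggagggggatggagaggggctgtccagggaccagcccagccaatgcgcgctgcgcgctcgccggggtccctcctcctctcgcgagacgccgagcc

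The motifs were searched on both strands of the whole 300-base windows, each on its own even where matches to different motifs would share bases. The capitals are an E-box (CACGTG) beginning 187 bases before the RefSeq start of Slc25a36 and an ETS core (CCGGAAG) beginning 130 bases before that of Slc25a4. The other windows shown held no match. The gene annotation used for positions places the starts of Slc25a4 (46211284), Slc25a36 (97111157) and Slc25a22 (141437892) inside the windows shown. Bases of these windows nearest the RefSeq start thus lie within the annotated gene, and so does the ETS core of Slc25a4. The ETS core stood in 6 of 34 member windows and in 8.86% of the 32851 windows of all genes. An E-box stood in 6 member windows and in 7.15% of all windows. The ERR half-site AAGGTCA stood in 1 member window (4.72% of all), the GATA site AGATAA in 2 (11.2%), the TATA box TATAAA in 1 (13.6%) and the NRF1 core GCGCATGCG in 0 (1.75%). The median GC content was 60.3% in member windows and 52.7% in all windows. Members were given 1 window each, whereas all windows can include more than 1 for a gene, so these shares and medians compare unlike sets. A match is only a run of letters, and these shares were not tested.

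Levels between members were compared per length, in the authors' TPM, a length-scaled abundance, which listed 38 of the 45 members. Slc25a4, the ADP/ATP carrier typical of heart and skeletal muscle, stood first at 303 ± 151 TPM (SD over 12 libraries; 150.1 to 604) and made up 63.5% of the family's TPM. Slc25a3, the phosphate carrier, followed at 53.5 ± 11.8 TPM, then the oxoglutarate-malate carrier Slc25a11 at 25.7 ± 5.86 and the more widely expressed ADP/ATP carrier Slc25a5 at 19.0 ± 3.76. Slc25a4 exceeded Slc25a3, and Slc25a3 exceeded Slc25a11, in all 12 libraries, whereas Slc25a11 exceeded Slc25a5 in 11. Slc25a5 exceeded the next member, the iron carrier Slc25a28 (9.0 ± 5.92 TPM), in all 12.

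Below these 4 members the order was less firm. Slc25a28 exceeded the glutathione carrier Slc25a39 (8.57 ± 2.30 TPM) in only 6 of 12 libraries. From rank 5 on, no member exceeded its next neighbour in all 12 libraries, and the lowest mean was 0.151 TPM, for the glutamate carrier Slc25a18. Mitochondrial and mitochondrial-like genes together held 85.9 to 95.4% of the TPM in a library, so a member's TPM also moves with that share. The ratio of Slc25a4 to Slc25a5 TPM was 18.9 ± 5.56 in the AngII arm (13.1 to 27.2) and 12.2 ± 2.98 in the sham arm (8.37 to 15.2; SD, n = 6 each), and the arms overlapped.

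**Figure D1:**
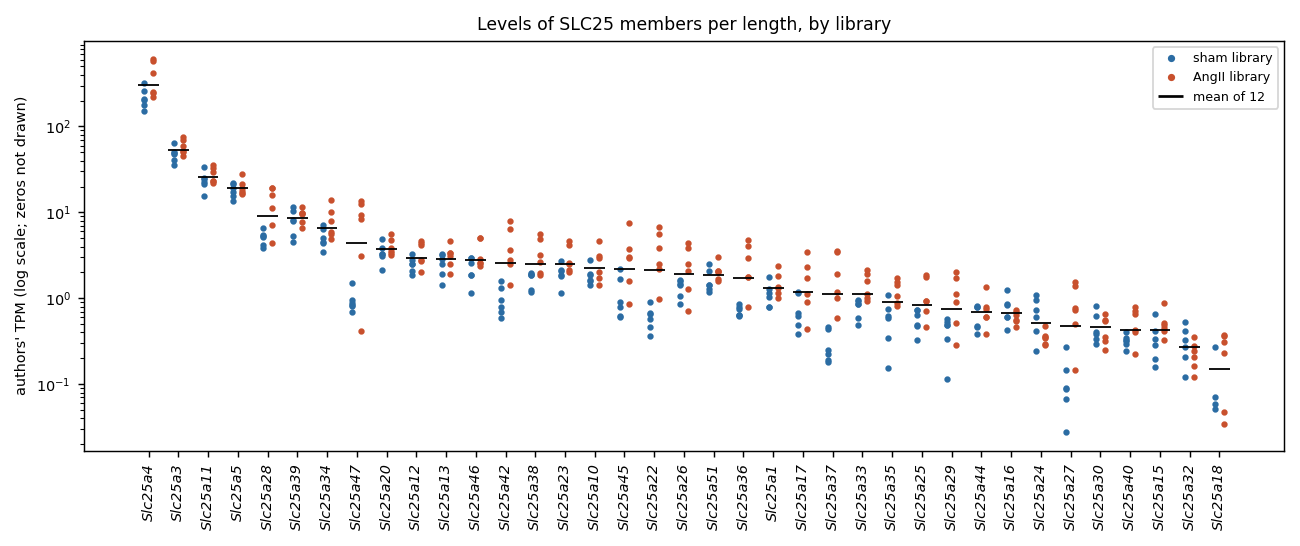
TPM of 37 SLC25 members in each library, on a log axis, ordered by the mean of 12 libraries (black lines), with sham libraries in blue and AngII libraries in red; zeros are not drawn. Slc25a4, at a mean of 303 TPM, stands above all others, and from Slc25a28 on the libraries of neighbouring members overlap.

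Averaged over the 3 doses, AngII against sham hearts asks which carriers differed with the hypertrophy model. The carriers for glutamate (Slc25a22), iron (Slc25a37), coenzyme A (Slc25a42) and pyrimidine nucleotides (Slc25a36) rose, as did the uncoupling-like Slc25a27, and Slc25a47, of other or unassigned substrate. The ATP-Mg carrier Slc25a24, the folate and FAD carrier Slc25a32 and Slc25a16 fell. The ADP/ATP, phosphate, oxoglutarate, aspartate and acylcarnitine carriers did not pass the test. In all, the quasi-likelihood F-test of edgeR, adjusted over all genes by Benjamini-Hochberg at 0.05, called 10 of 39 members (25.6%), 7 higher and 3 lower. The same test called 24.7% of all 14255 genes, 15.2% higher and 9.45% lower, so the members' share lay near the background. Their median log2 fold change was 0.05 against 0.02 over all genes, with 22 above and 17 below 0.

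The share of counts outside the mitochondrial, mitochondrial-like and ribosomal loci ran higher in the AngII arm with overlap (7.49 to 20.3% against 6.34 to 10.4%). Its part in the calls was not tested. In a fit with that share as a covariate, 425 of all genes were called. Among them were Slc25a22 (log2 fold change 1.40), Slc25a37 (1.47) and Slc25a36 (0.76), which remained called (3 members). Slc25a36 passed only narrowly (edgeR adjusted p = 0.0479). The other 7 members were not called in that fit, with Slc25a42 at 1.04 (edgeR adjusted p = 0.0579), Slc25a27 at 1.54, Slc25a47 at 1.18, Slc25a24 at -1.13, Slc25a32 at -0.88 and Slc25a16 at -0.50. Of the calls over all genes, 61.7% were higher in AngII in the fit reported here, 83.3% with the covariate, 40.7% when each library's trend on GC content was removed and 97.9% on TPM.

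Among the adenine nucleotide and phosphate carriers, 1 of 6 tested members fell and 5 did not pass. Slc25a24 encodes a calcium-regulated carrier that exchanges ATP-Mg for phosphate (chromosome 3, 109123149 to 109168457, GRCm38). Its level was 0.605 CPM at the lowest, 1.07 at the median and 1.62 at the highest in the AngII arm, against 1.24, 2.81 and 3.93 CPM in the sham arm. Sham vehicle number 7 was the low sham library, and it lay within the AngII range. Slc25a24 fell by a log2 fold change of -1.38 ± 0.30 (SE; edgeR adjusted p = 0.00954).

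Slc25a4 (chromosome 8, 46206797 to 46211284) ran from 508 to 670 CPM in the AngII arm (median 587) and from 345 to 757 CPM in the sham arm (median 556), and the sham arm spanned the whole AngII range. Its log2 fold change was 0.12 ± 0.18 (edgeR adjusted p = 0.648). With the GC trend removed it was -0.09, where the median of all genes was -0.14. Slc25a5 (chromosome X, 36795651 to 36798807) ran from 15.9 to 28.9 CPM (median 19.4) in the AngII arm and from 26.6 to 32.1 CPM (median 28.3) in the sham arm. In 5 of 6 AngII libraries it lay below all sham libraries, AngII 5 mg number 4 being the exception. Its log2 fold change was -0.47 ± 0.18 (edgeR adjusted p = 0.0762). It was called lower without that library, with the GC trend removed (-0.57, edgeR adjusted p = 0.0382), by DESeq2's Wald test and by limma-voom. On TPM it was 0.11, against a median of 0.22 over all genes. Slc25a3 ran from 56.6 to 102 CPM against 77.5 to 123 CPM, with a log2 fold change of -0.29 ± 0.18 (edgeR adjusted p = 0.255).

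The malate-aspartate shuttle and acylcarnitine carriers had negative log2 fold changes, none of which passed the test in the fit reported. The oxoglutarate carrier Slc25a11 ran from 30.5 to 51.4 CPM (median 39.7) against 39.0 to 65.1 CPM (median 51.3), a log2 fold change of -0.36 ± 0.18 (edgeR adjusted p = 0.165). It was called lower with the GC trend removed (-0.66, edgeR adjusted p = 0.0389) and without AngII 5 mg number 4 (-0.50), as Slc25a3 was without that library (-0.45). Slc25a12, the aspartate-glutamate carrier of excitable tissues, was at -0.18 ± 0.16 (14 to 22.0 against 15.8 to 26.6 CPM). Slc25a13, its counterpart best known from liver, was at -0.30 ± 0.17 (6.24 to 9.78 against 6.50 to 14.9 CPM). The arms overlapped for each of these carriers. Slc25a20, the carnitine-acylcarnitine carrier needed for oxidation of long-chain fatty acids, ran from 6.59 to 13.3 CPM against 8.73 to 16.1 CPM, with a log2 fold change of -0.34 ± 0.20 (edgeR adjusted p = 0.231). On TPM, where the median of all genes was 0.22, Slc25a3, Slc25a11, Slc25a12, Slc25a13 and Slc25a20 were at 0.19 to 0.32, which is -0.03 to 0.11 relative to that median.

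**Figure D2:**
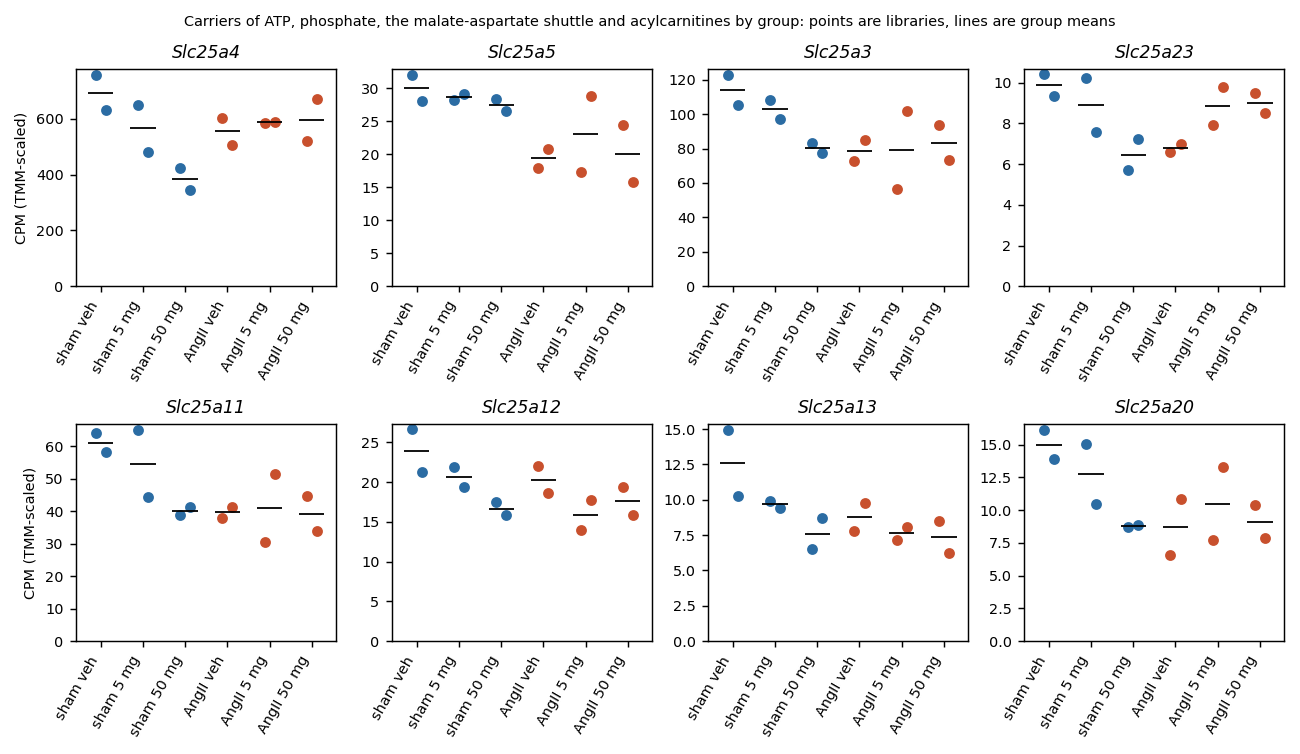
CPM of 8 carriers of ATP, phosphate, the malate-aspartate shuttle and acylcarnitines in each of the 6 groups, with 1 point per library, a line at each group mean and axes from 0 (sham blue, AngII red). Slc25a4 lies lower in both sham 50 mg libraries (424 and 345 CPM) than in the other sham libraries, and the AngII libraries of Slc25a5 lie below the sham libraries except AngII 5 mg number 4.

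Of 7 tested amino acid carriers, Slc25a22 rose and the other 6 did not pass. Slc25a22 encodes a glutamate carrier (chromosome 7, 141429744 to 141437892). Its lowest, median and highest levels were 3.79, 7.66 and 9.69 CPM in the AngII arm and 1.28, 2.08 and 3.78 CPM in the sham arm. The arms did not overlap, but by a narrow gap between AngII 5 mg number 4 and sham vehicle number 7. The log2 fold change was 1.81 ± 0.26 (edgeR adjusted p = 0.00196).

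The 11 carriers of cofactors, nucleotides and glutathione held 5 of the 10 calls, 3 higher and 2 lower. Slc25a36, a pyrimidine nucleotide carrier (chromosome 9, 97074961 to 97111157), stood at 5.66, 10.5 and 15.2 CPM (lowest, median, highest) in the AngII arm and at 4.02, 4.90 and 5.60 CPM in the sham arm. Again the arms did not overlap and AngII 5 mg number 4 was the lowest AngII library. It rose by a log2 fold change of 1.10 ± 0.20 (edgeR adjusted p = 0.00431). Slc25a42 brings coenzyme A into the matrix (chromosome 8, 70184340 to 70212305). It ran from 6.29 to 12.9 CPM (median 9.40) against 1.85 to 6.42 CPM (median 4.15), a log2 fold change of 1.31 ± 0.23 (edgeR adjusted p = 0.00410), with overlap between AngII 5 mg number 4 and sham vehicle number 7.

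Slc25a32, a folate and FAD carrier (chromosome 15, 39091231 to 39112716), and Slc25a16, a carrier linked to coenzyme A (chromosome 10, 62920633 to 62946498), fell. Slc25a32 stood at 0.787, 0.951 and 1.97 CPM in the AngII arm and at 1.18, 2.35 and 3.10 CPM in the sham arm (lowest, median, highest), a log2 fold change of -0.99 ± 0.29 (edgeR adjusted p = 0.0306). For Slc25a16 the levels were 1.01, 1.63 and 2.41 CPM against 2.23, 2.82 and 3.98 CPM, a log2 fold change of -0.83 ± 0.26 (edgeR adjusted p = 0.0368). The arms overlapped for both, and each call was kept in 5 of the 12 fits that omit a library. On TPM neither was called, nor was Slc25a24.

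Both iron carriers, known as mitoferrins, had positive values, and Slc25a37 passed the test. Slc25a37, mitoferrin 1, supplies iron for heme synthesis and is best known from developing red cells (chromosome 14, 69241848 to 69285112). It stood at 3.37, 5.60 and 9.05 CPM in the AngII arm and at 0.910, 1.58 and 1.94 CPM in the sham arm (lowest, median, highest), with no overlap. It rose by a log2 fold change of 1.98 ± 0.27 (edgeR adjusted p = 0.00171), the smallest p among the members. Slc25a28, mitoferrin 2, ran from 6.40 to 13.0 CPM against 4.30 to 8.61 CPM, at 0.57 ± 0.21 (edgeR adjusted p = 0.0655).

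Slc25a22, Slc25a36 and Slc25a37 were the members whose arms did not overlap in CPM, all higher in AngII, against 4.78% of all genes tested that were higher and 3.5% that were lower without overlap. In TPM the arms of Slc25a36 overlapped (lowest AngII library 0.787, highest sham library 0.855).

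Red cell markers moved with the arm as well. Their summed level was 1029 to 3333 CPM in the AngII arm and 291 to 1752 CPM in the sham arm, and 5 of 6 tested markers of the 7 listed were called higher. In the vehicle groups the sums were 1029 and 1580 CPM in AngII and 1752 and 1302 CPM in sham. In the same libraries Slc25a37 stood at 6.00 and 5.19 CPM against 1.59 and 1.86 CPM. At 5 mg the sums were 1549 and 2113 CPM in AngII and 766 and 363 CPM in sham. The part of red cells in the difference of Slc25a37 was not tested.

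Of the 3 uncoupling-like carriers, which resemble the uncoupling proteins, Slc25a27 rose. Slc25a27 (chromosome 17, 43641891 to 43667214), described mainly in brain, stood at 0.577, 1.84 and 2.69 CPM in the AngII arm and at 0.134, 0.388 and 0.947 CPM in the sham arm. AngII 5 mg number 4 was low and sham 5 mg number 10 was high, and these overlapped. The log2 fold change was 2.1 ± 0.46 (edgeR adjusted p = 0.00920), from as few as 6 counts in a library.

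Slc25a47, a carrier best known from liver (chromosome 12, 108836046 to 108856815), rose among 5 tested members of other or unassigned substrate. It stood at 0.343, 4.15 and 5.55 CPM in the AngII arm and at 0.422, 0.698 and 1.52 CPM in the sham arm. AngII 5 mg number 4 was below every sham library and the other AngII libraries were above all of them. The log2 fold change was 2.12 ± 0.50 (edgeR adjusted p = 0.0130), and 1.23 without AngII 5 mg number 3. Hepatocyte markers summed to 0.303 to 60.7 CPM in the AngII arm and 0.0994 to 44.5 CPM in the sham arm, with 0 of 6 called. The part of these cells in the difference was not tested. Slc25a29, a carrier of basic amino acids whose gene starts 162 bases from that of Slc25a47 on the other strand, was at 0.63 ± 0.34 and did not pass.

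**Figure D3:**
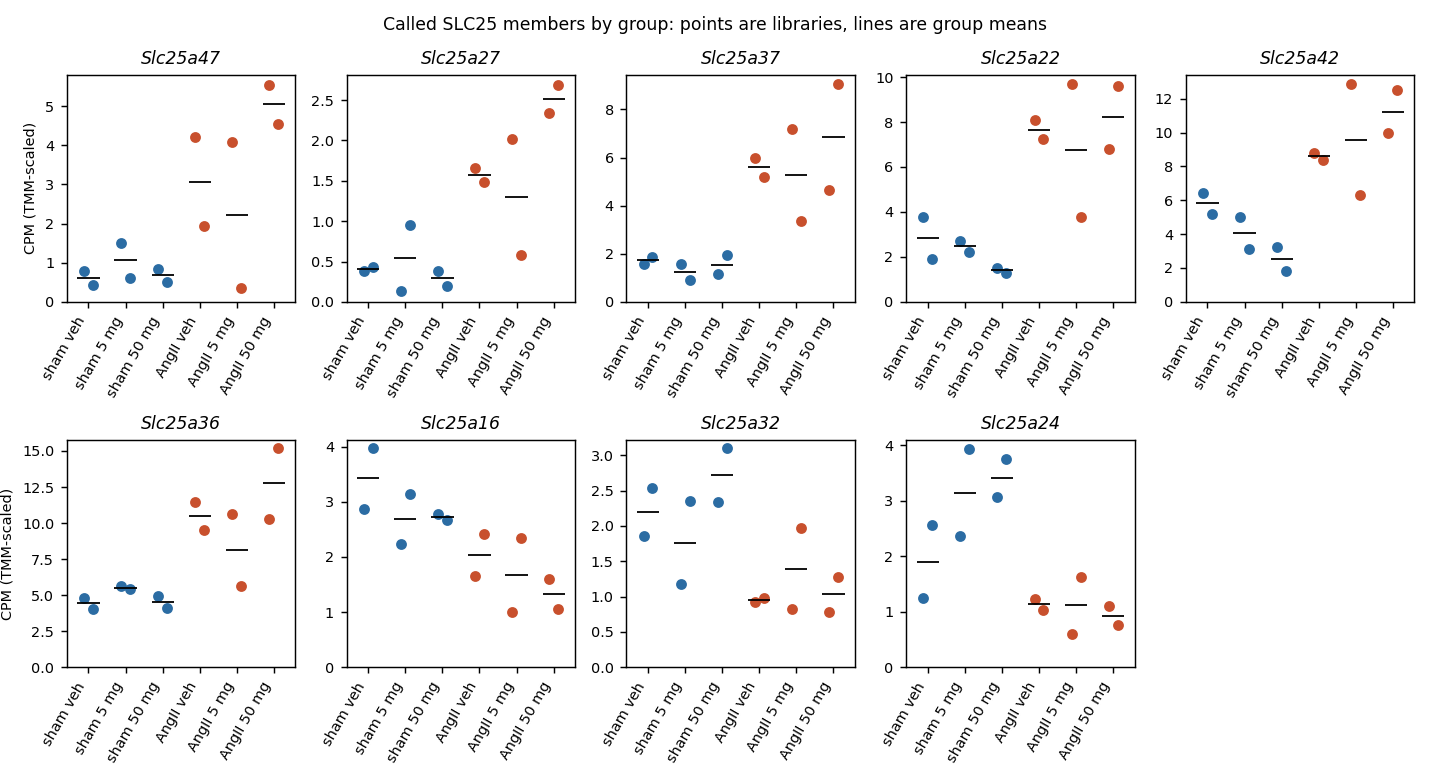
CPM of 9 called members in each of the 6 groups, with 1 point per library, a line at each group mean and axes from 0 (sham blue, AngII red). In each of the 6 higher members drawn the lower AngII 5 mg point, number 4, is the lowest AngII library, and for Slc25a47 it lies at 0.343 CPM, below all sham libraries.

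**Figure D4:**
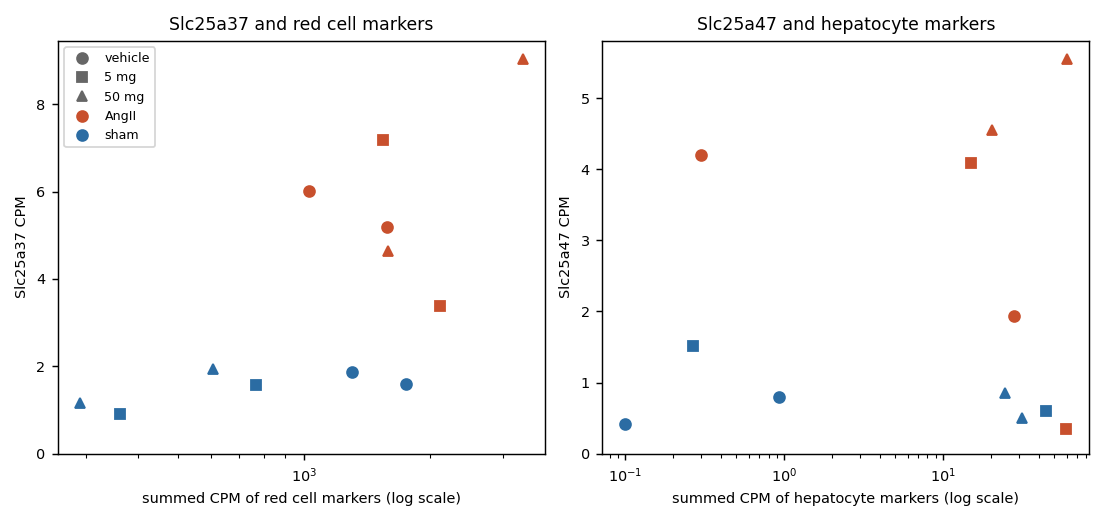
Slc25a37 against the summed red cell markers and Slc25a47 against the summed hepatocyte markers, in CPM, with 1 point per library, marker sums on log axes, colour for arm and shape for dose. Red cell sums run from 1029 to 3333 CPM in AngII and from 291 to 1752 CPM in sham, and hepatocyte sums from 0.303 to 60.7 CPM and from 0.0994 to 44.5 CPM.

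Other marker lists also moved with the arm. In the averaged contrast 3 of 6 endothelial markers and 3 of 6 smooth muscle and pericyte markers were called higher, 4 of 6 fibroblast markers and 2 of 6 macrophage markers were called lower, and of 7 tested cardiomyocyte markers 3 were higher and 1 lower. Endothelial sums were 63.8 to 144 CPM in the AngII arm and 48.0 to 69.2 CPM in the sham arm, and fibroblast sums 56.6 to 90 CPM against 64.0 to 230 CPM. Fat cell sums were 1.18 to 2.25 CPM in all libraries, and Adipoq was at 0. Their part in the members' differences was not tested.

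Base composition of the called members differed in the median, but the ranges overlapped. The median transcript GC content was 56.0% in the 7 that rose, 42.5% in the 3 that fell and 50.1% in the 29 others. The ranges were 40.7 to 57.6%, 41.2 to 43.4% and 39.4 to 60.6%, and Slc25a36, which rose, was at 40.7%. Over all genes tested the same medians were 53.2, 47.4 and 49.7%. Spearman's rho of the log2 fold change on GC content was 0.25 across the 39 members and 0.24 across all genes with a GC value, a description across genes that share libraries. After removal of each library's GC trend, 12 members were called, 6 higher and 6 lower, of which 9 were among the 10. All genes shifted downward in that fit, to a median log2 fold change of -0.14. Of the calls over all genes, as given above, fewer were then higher than lower.

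**Figure D5:**
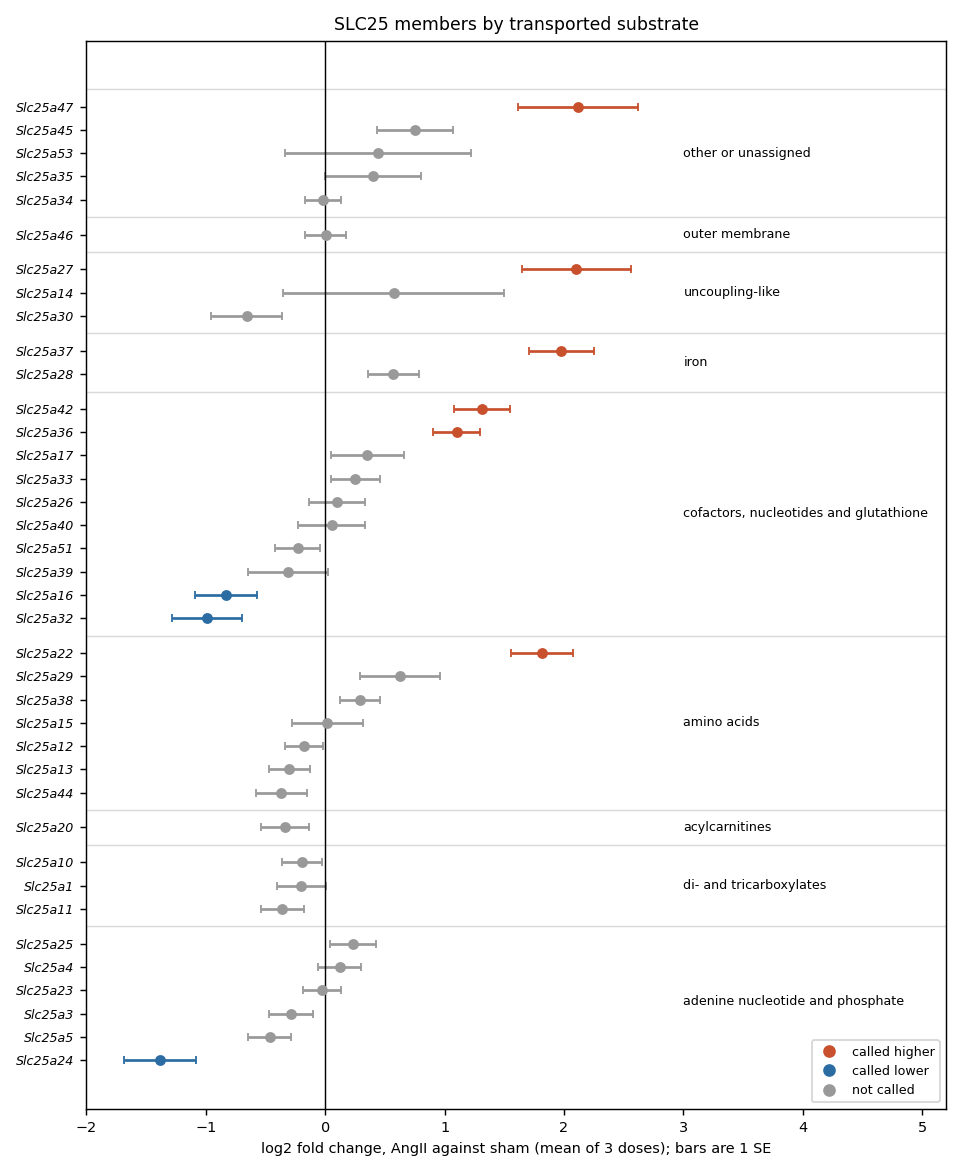
Log2 fold change (points) and 1 SE (bars) of 38 tested members in AngII against sham averaged over 3 doses, grouped by transported substrate, with called members in red (higher) or blue (lower). Values run from -1.38 for Slc25a24 to 2.12 for Slc25a47, and 4 of the 9 calls drawn lie among the carriers of cofactors, nucleotides and glutathione.

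Within single doses fewer members passed, with 2 libraries on each side. In vehicle, 0 of 39 members were called against 0.014% of all genes. At an unadjusted p under 0.05 there were 8 members, against 18.2% of all genes. DESeq2's Wald test called 3 members and 5.01% of all genes. The smallest p belonged to Slc25a36 (1.24 ± 0.34), Slc25a37 (1.69 ± 0.47) and Slc25a45 (1.92 ± 0.57), with edgeR adjusted p of 0.147, 0.148 and 0.162. At 5 mg, 0 members were called against 0% of all genes. An unadjusted p under 0.05 was found for 5 of 39 members and 12.9% of all genes. DESeq2 called 1 member and 1.97% of all genes. The smallest p there belonged to Slc25a37 (2.1 ± 0.48), Slc25a22 (1.46 ± 0.45) and Slc25a42 (1.24 ± 0.40).

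At 50 mg, 5 members were higher in AngII than in sham (12.8%), and none lower. Of all genes 6.68% were called, 4.92% higher and 1.76% lower. Slc25a22 stood at 6.82 and 9.59 CPM in AngII 50 mg numbers 5 and 6 and at 1.51 and 1.28 CPM in sham 50 mg numbers 11 and 12 (log2 fold change 2.56 ± 0.47, edgeR adjusted p = 0.0140). Slc25a42 stood at 9.98 and 12.5 CPM against 3.27 and 1.85 CPM (2.14 ± 0.41, edgeR adjusted p = 0.0169). Slc25a37 stood at 4.63 and 9.05 CPM against 1.16 and 1.94 CPM (2.14 ± 0.47, edgeR adjusted p = 0.0264). Each AngII library was above both sham libraries for these carriers. As they were named for calls on the same values, this adds no support, and the share of all genes so separated was not counted.

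Slc25a36 and Slc25a27 were the remaining calls at 50 mg. Slc25a36 stood at 10.3 and 15.2 CPM against 4.97 and 4.11 CPM (1.49 ± 0.34, edgeR adjusted p = 0.0299), and Slc25a27 at 2.35 and 2.69 CPM against 0.388 and 0.195 CPM (3.12 ± 0.83, edgeR adjusted p = 0.0453). The count of 5 fell to 0 without AngII 50 mg number 6, sham 50 mg number 11 or sham 50 mg number 12, fits in which the lone library is assumed to vary like the other groups. Over all fits that omit a library, the log2 fold changes ran from 2.33 to 2.78 for Slc25a22, 1.78 to 2.60 for Slc25a42, 1.62 to 2.56 for Slc25a37, 1.22 to 1.75 for Slc25a36 and 2.69 to 3.68 for Slc25a27. Red cell sums at this dose were 1590.2 and 3333 CPM in AngII against 291 and 606 CPM in sham. Fibroblast sums were 59.7 and 64.8 CPM against 230 and 219 CPM, with 5 of 6 markers called lower. Cardiomyocyte sums were 6940 and 7745 CPM against 3535 and 2897 CPM, with 3 of 7 tested markers called higher. Of the endothelial, macrophage, and smooth muscle and pericyte markers, 0 were called. The part of these cells in the calls at 50 mg was not tested.

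Gastrodin against vehicle asks whether the compound moved the carriers. In AngII hearts, 0 of 39 members were called at 5 mg and 0 at 50 mg, against 0.00702% of all genes at each dose. At an unadjusted p under 0.05 there were 0 and 2 members, against 1.73% and 1.84% of all genes. The smallest p at 50 mg belonged to Slc25a25, a calcium-regulated ATP-Mg carrier, at 4.67 and 3.37 CPM in vehicle and 1.80 and 1.95 CPM at 50 mg (log2 fold change -1.10 ± 0.34), followed by Slc25a26 (0.91 ± 0.41), which carries S-adenosylmethionine, and Slc25a45 (-1.07 ± 0.55). At 5 mg they were Slc25a30 (0.99 ± 0.52), Slc25a44 (0.60 ± 0.37) and Slc25a23 (0.38 ± 0.27).

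In sham hearts, 0 members were called at 5 mg (0% of all genes) and 0 at 50 mg (0.126% of all genes). At an unadjusted p under 0.05 there were 1 and 7 of 39 members, against 4.24% and 10.2% of all genes. Slc25a42 stood at 6.42 and 5.2 CPM in sham vehicle, 5.04 and 3.11 CPM at 5 mg and 3.27 and 1.85 CPM at 50 mg. The 50 mg libraries lay below the vehicle libraries, with a log2 fold change of -1.19 ± 0.40 (edgeR adjusted p = 0.35). This order adds no support, as Slc25a42 was named for its small p on the same values. The share of all genes so separated was not counted. Slc25a4 stood at 757 and 630 CPM in sham vehicle, 649 and 483 CPM at 5 mg and 424 and 345 CPM at 50 mg (50 mg against vehicle, -0.85 ± 0.31, edgeR adjusted p = 0.368). Slc25a34, of no assigned substrate, was at -0.75 ± 0.26. Sham 50 mg number 12, the library with 11.1% ribosomal RNA counts, was the lowest for Slc25a42 and Slc25a4. Fibroblast marker sums were 64.0 and 118 CPM in sham vehicle and 230 and 219 CPM at 50 mg. Cardiomyocyte sums were 5403 and 4223 CPM in sham vehicle and 3535 and 2897 CPM at 50 mg. The part of these cells was not tested. At 5 mg the smallest p belonged to Slc25a45 (1.37 ± 0.57), Slc25a34 (-0.40 ± 0.26) and Slc25a53 (-2.18 ± 1.45). Slc25a53 was near the floor, at 0 and 0.127 CPM in sham 5 mg and 0.155 and 0.447 CPM in sham vehicle.

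The interaction asks whether AngII against sham differed between a dose and vehicle. It called 0 members at 5 mg (0% of all genes) and 0 at 50 mg (0.021% of all genes). An unadjusted p under 0.05 was found for 0 and 4 members, against 2.93% and 7.35% of all genes. At 50 mg the smallest p belonged to Slc25a42 (1.57 ± 0.56), Slc25a45 (-2.17 ± 0.79) and Slc25a23 (1.02 ± 0.39), with edgeR adjusted p of 0.585, 0.592 and 0.60. At 5 mg they were Slc25a45 (-1.35 ± 0.78), Slc25a46 (0.71 ± 0.43) and Slc25a34 (0.58 ± 0.37). The calls at 50 mg and their absence in vehicle are therefore not shown to differ.

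Of 57 genes listed for pathways around the carriers, 56 were tested and 14 were called in the averaged contrast, 8 higher and 6 lower (25%, against 24.7% of all genes). In the TIM22 import list, 4 of 13 genes fell, 1 rose and 8 did not pass, with a median of -0.49. Those that fell were Timm29 (-0.85 ± 0.22), a subunit of the TIM22 complex, the outer membrane receptors Tomm70a (-0.78 ± 0.21) and Tomm20 (-0.78 ± 0.21), and the small chaperone Timm8a1 (-0.73 ± 0.20), while the chaperone Timm9 rose (0.69 ± 0.21). In the carnitine shuttle list 2 of 5 rose, Slc22a5, which takes carnitine into the cell (1.43 ± 0.23), and Cpt1b, the muscle carnitine palmitoyltransferase (1.97 ± 0.39). Among mitochondrial ABC transporters 2 of 4 rose, Abcb6 (0.86 ± 0.19) and Abcb8 (0.97 ± 0.27).

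In the list of pyruvate carriers and sideroflexins, the latter including the serine carriers of the inner membrane, Sfxn2 (2.31 ± 0.61) and Sfxn5 (2.09 ± 0.46) rose, Sfxn3 fell (-1.07 ± 0.20) and 4 of 7 did not pass. Ucp3, an uncoupling protein of muscle, rose (0.94 ± 0.32, edgeR adjusted p = 0.0496) among 4 tested family members under other symbols. Micu2, a regulator of the calcium uniporter, fell (-0.97 ± 0.23) among 9 calcium genes. No gene was called among 3 outer membrane porins, 4 malate-aspartate shuttle enzymes and 7 ATP synthase and permeability pore genes. Exon bases are shared on the same strand by Cpt1b with Gm44502 (2744 bases) and by Abcb6 with Gm29253 (2932 bases), so both are uncertain.

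The 6 members below the limit were Slc25a18 (0 to 55 counts per library), Slc25a2 (0 to 28), Slc25a31 (0 to 21), Slc25a43 (0 to 10), Slc25a21 (0 to 5) and Slc25a41 (0 in every library). Among tested members, Slc25a53 had 10 or more counts in 5 AngII and 2 sham libraries, Slc25a14 in 6 and 4, and Slc25a27 in 6 and 5. Some exons of members lie over another gene, mostly on the opposite strand, and the labels do not state whether counting used the strand. The widest was the 1151 bases that Slc25a35 shares with Rangrf, and both are uncertain; Slc25a11 shares 189 bases with Rnf167. The genes overlapping Slc25a37 and Slc25a47 held at most 3 counts over all libraries.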

How the data were processed

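Raw counts for 27504 genes in 12 heart libraries (63.5 to 78.6 M each) were used as the authors deposited them, with no normalization. TPM were the authors' values for 14271 genes, per the file headers, and served only for levels between genes and 1 alternative. HISAT2 2.2.1, StringTie 2.1.3 and GRCm38.p6 are named in the submitters' processing notes; sources used here do not give the counting program, strand or annotation. Of the rows, 15 had no symbol. Genes with 10 or more counts in at least 6 of 12 libraries (14255) were fitted in R 4.3.3 with edgeR 4.0.16, TMM scaling and 1 mean per group over all 12 libraries (6 residual degrees of freedom), and tested with the 2-sided quasi-likelihood F-test, Benjamini-Hochberg adjusted over all genes at 0.05. SE was taken as the size of the log2 change over the square root of F. Positions and overlaps came from GENCODE M21, and the procedure was tested on simulated data. In the averaged contrast it recovered 46.3% of simulated 2-fold changes, 97.0% of 4-fold and 97.0% of 8-fold changes, with 10 false calls. A member that did not pass is thus not shown to be unchanged. Within groups, counts differed by 20.1 to 109 times the chi-square expected from sampling noise and no pair agreed within it.

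The members, substrate, pathway and marker lists were chosen with earlier results of these data known. Named were every called member, the fixed members Slc25a4, Slc25a5, Slc25a3, Slc25a20, Slc25a11, Slc25a12, Slc25a13 and Slc25a37, the 3 smallest p where none was called, up to 4 called genes per list, and members below the limit; 1 called member is counted but not reported here. Slc25a28, Slc25a29 and Slc25a39 were added after their values were seen. Alternatives were DESeq2 1.42.0 size factors and Wald test, limma 3.58.1 voom, other filters, a fit of the compared groups alone, a fit without mitochondrial or haemoglobin genes, limma-trend on log2(TPM + 1), the share of other genes as a covariate, overlapping genes summed, GC trend removed, and each library left out.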

Additional observations from a re-analysis of the deposited data

Results flagged for a closer look

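Of 32 sets tested (16 named members in each arm of 6 libraries), 1 held a library that stood apart from the other 5 by Dixon's criterion, and chance alone marks about 1 in 20. Slc25a27, the uncoupling-like carrier, stood at 0.947 CPM in sham 5 mg number 10, while the other sham libraries lay between 0.134 and 0.435 CPM.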

How the results depend on the processing

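Averaged over doses, the count of 10 called members ran from 7 to 12 under the alternatives other than the covariate, under which it was 3, and was 8 to 15 with 1 library left out. The median of 0.05 became 0.42 on TPM, 0.12 with the covariate and -0.075 with the GC trend removed, and -0.0082 to 0.14 with 1 library left out. The share of all genes called moved between alternatives as well. By DESeq2's Wald test it was 32.0% averaged over doses, 5.01% in vehicle, 1.97% at 5 mg and 16.0% at 50 mg. With no filter these shares were 17.6%, 4.46%, 2.66% and 8.97%. With only the compared groups the share in vehicle was 1.66%. Member counts within doses stand beside these shares. In vehicle, 3 members were called by DESeq2's Wald test, 5 with no filter, 1 with only the compared groups and 0 to 1 with 1 library left out. At 5 mg the counts were 1, 3 (DESeq2, no filter) and 0 to 4, and 3 with AngII 5 mg number 4 and sham 50 mg number 12 both omitted, an alternative chosen after seeing the data. At 50 mg they were 8 by DESeq2, 9 with no filter, 8 with only the compared groups, 0 on TPM, 2 with the covariate, 2 without both those libraries and 0 to 8 with 1 library left out: 8 without AngII 5 mg number 3 or 4, 3 without AngII 50 mg number 5 and 0 without number 6, 11 or 12. Gastrodin against vehicle and interaction counts were 0 in each fit run.

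On TPM, where the median of all genes moved to 0.22, values were above 0 for Slc25a5 (0.11), Slc25a3 (0.29), Slc25a20 (0.19), Slc25a11 (0.23), Slc25a12 (0.32) and Slc25a13 (0.23), and with the GC trend removed, where it moved to -0.14, below 0 for Slc25a4 (-0.094). Slc25a16 (-1.07 to -0.65) lost its call without number 1, 3, 6, 8, 10, 11 or 12, and Slc25a32 (-1.24 to -0.80) without number 1, 2, 3, 5, 8, 10 or 12; the 7 other called members named kept theirs in 12 of 12 such fits. Over all genes, 3520 calls became 1625 when AngII vehicle number 1 was omitted, 1883 when AngII 50 mg number 6 was, 425 with the covariate and 1253 on TPM, and 2166 to 5120 in the other fits with 1 library left out. The cause of these shifts was not tested. No paired analysis was possible because the groups share no replicate number.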
